A study of Mus musculus with 11 samples.

Results

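Transcripts of 6 genes for cell-to-cell coupling and membrane pores were followed in the mouse retina. They are the connexins Gjd2, Gjc1, Gja10 and Gja1 and the pannexins Panx1 and Panx2, taken by Ensembl ID from the 47069 genes counted, and each of the 6 had exactly 1 row. The study is an RNA-seq experiment on retinas of C57BL/6 mice of postnatal day 4 or 8, written P4 and P8. The animals called Kir2.1 here carried Brn3b-cre together with a CAG-driven transgene behind a floxed stop cassette, which encodes human Kir2.1 joined to eYFP. Kir2.1 is an inwardly rectifying potassium channel used to silence neurons, and Brn3b-cre is active in retinal ganglion cells. There were 11 libraries: at P4 2 of wild type and 3 of Kir2.1, and at P8 3 of each genotype. The genotype field calls the controls wild type, whereas the protocol names Brn3b-cre mice, so the controls may carry the driver too. For the later age the protocol gives P11 and the age field P8, and the field value is used throughout. Whole retinas were dissociated with no sorting step described, although the source field names ganglion cells. Sex, litter and the number of animals per library are not given, so p-values measure the spread between these libraries only.

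Connexins are the subunits of gap junctions, channels that join the interiors of neighbouring cells. In the retina, electrical coupling through them links ganglion, amacrine and bipolar cells and contributes to the spread of spontaneous activity before eye opening. Pannexins resemble connexins in topology but form channels in a single membrane, through which ATP can leave the cell. Gjd2 encodes connexin Cx36, the main neuronal connexin of AII amacrine cells, cones and some ganglion cells. Gjc1 encodes Cx45, found in bipolar and ganglion cells, and Gja10 encodes Cx57 of horizontal cells. Gja1 encodes Cx43, the connexin of astrocytes, Mueller glia and vascular cells.

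The 4 connexins share a signature in the first extracellular loop, where 3 cysteines are set apart by 6 and then 3 residues. These cysteines hold the docking surface between neighbouring cells, and the pattern is shown because it separates the connexins from the pannexins in this set. The coding strand of that stretch is given 5′ to 3′ with the cysteine codons in capitals, read from GENCODE mouse release 21 transcripts on GRCm38.
Gjd2: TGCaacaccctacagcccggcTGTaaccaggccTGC
Gjc1: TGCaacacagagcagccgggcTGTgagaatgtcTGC
Gja10: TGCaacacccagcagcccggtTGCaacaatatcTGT
Gja1: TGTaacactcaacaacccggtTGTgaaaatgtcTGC
The stretches lie at chr2:114011797-114011832 in exon 2 of Gjd2 (minus strand), chr11:102800984-102801019 in exon 3 of Gjc1 (minus strand), chr4:32602188-32602223 in exon 1 of Gja10 (minus strand) and chr10:56387706-56387741 in exon 2 of Gja1 (plus strand). Between pairs of connexins, 26 to 28 of the 36 bases were identical. The pattern had no match in the coding sequence of Panx1 or Panx2. Over whole transcripts, the longest run of bases shared exactly by any pair of the 6 genes was 24, between Gjc1 and Gja1, and the next longest was 16.

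Counts assigned to genes ran from 9362215 to 12478838 per library. Levels are given as CPM, which are counts relative to the TMM-scaled total of the library. Of the 6 genes, 5 passed a filter on low counts and Gja10 did not. Some libraries stood apart from others of their group. Wild-type P4 replicate 2 had 932 CPM of 8 dividing-cell markers, against 2110 to 2620 CPM in the other P4 libraries, and 898 CPM of 8 rod markers against 151 to 530 CPM. Wild-type P8 replicate 1 had 567 CPM of rod markers where the rest of the P8 libraries had 2320 to 5330 CPM. Kir2.1 P8 replicate 2 had counts in 31325 genes and the other libraries in 22609 to 24591. All 10 ganglion cell markers passed the filter, and their summed level was 844 to 1350 CPM in wild type and 248 to 698 CPM in Kir2.1 at P4, and 152 to 271 CPM over both genotypes at P8. The mouse gene Kcnj2 had 5.8 and 10.6 CPM in wild type and 6.41, 2.45 and 6.2 CPM in Kir2.1 at P4. At P8 it had 15.1, 17.2 and 3.74 CPM in wild type and 17.0, 4.9 and 11.3 CPM in Kir2.1. The genotypes overlapped at both ages. The transgene is a human cDNA, and whether its reads were counted under the mouse gene was not tested. These values thus give no check of the genotype labels.

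Gjd2 had the widest range of CPM in the set and stood first per length at P8. Divided by the length of its exons, its mean level was 70.2 ± 38.9 CPM per kilobase in wild type and 45.8 ± 9.8 in Kir2.1 at P8 (SD, n = 3 each), above Gjc1 at 6.70 ± 0.68 and 4.81 ± 0.60. Gjc1, Panx1 and Panx2 followed in both P8 groups at 4.15 to 6.70 CPM per kilobase, and neighbours among these overlapped in their library ranges. In Kir2.1 retinas at P4 the order was different, with Gjc1 first at 9.69 ± 0.94 CPM per kilobase (SD, n = 3), ahead of Gjd2 at 5.65 ± 0.52, Panx1 at 5.55 ± 0.36 and Panx2 at 4.14 ± 0.89. Gjd2 and Panx1 overlapped there, and so did Gja1 and Gja10, while the other neighbours did not. In wild type at P4, Gjd2 led on average at 17.9 ± 16.5 CPM per kilobase (SD, n = 2), but its range took in Gjc1 at 8.72 ± 1.57. Gja1 (0.30 to 0.90 CPM per kilobase by group) and Gja10 (0.11 to 0.28) came last in every group. With the longest coding transcript as the length, Gjc1 stood first in both P4 groups, at 18.85 CPM per kilobase in wild type and 20.96 in Kir2.1, and Gja1 ran from 0.97 to 2.91. Gjd2 was first at P8 by either length.

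**Figure D1:**
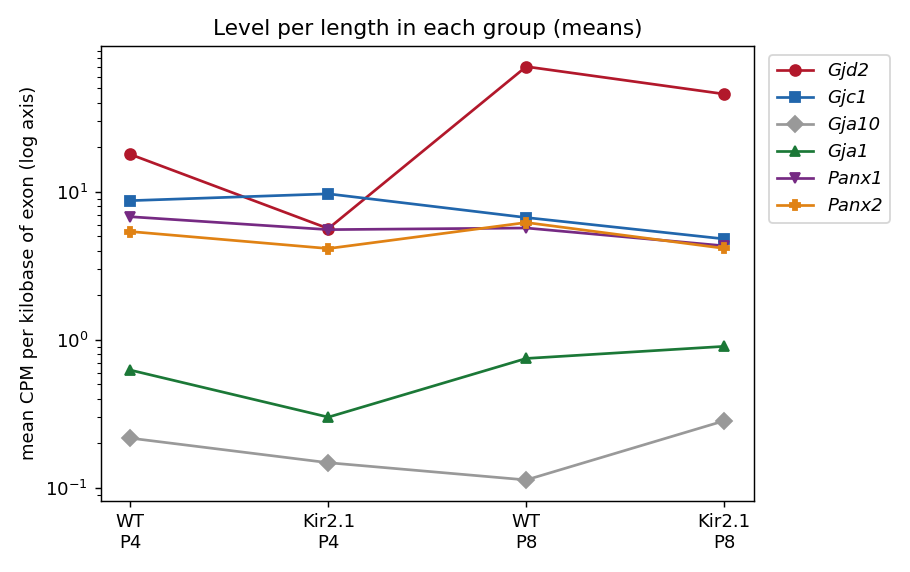
Mean level of each gene in the 4 groups, in TMM-scaled CPM per kilobase of annotated exon on a log axis, with lines joining the group means of 1 gene. Gjd2 is first in both P8 groups, at 70.2 and 45.8 CPM per kilobase, and Gja1 and Gja10 are last throughout.

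Gjd2 (ENSMUSG00000068615; chromosome 2, 114009601 to 114013619, minus strand, protein-coding, GRCm38) was higher at P8 than at P4. The wild-type P4 libraries had 17.9 and 85.2 CPM (replicates 1 and 2), and the Kir2.1 P4 libraries had 14.8, 17.8 and 16.2 CPM. Wild-type P8 libraries had 331.5, 140.1 and 134.7 CPM, and Kir2.1 P8 libraries 155, 100.4 and 140.3 CPM. Every P8 library was above every P4 library, wild-type P4 replicate 2 being the highest at P4 and wild-type P8 replicate 1 the highest at P8. In Kir2.1 retinas Gjd2 rose 8.1-fold from P4 to P8, by 3.02 ± 0.50 on the log2 scale (SE; edgeR adjusted p = 0.00194). In wild type the difference was 1.97 ± 0.55 and missed the threshold (edgeR adjusted p = 0.0665). It became 3.50 (edgeR adjusted p = 0.00208) without wild-type P4 replicate 2 and 2.19 (edgeR adjusted p = 0.0452) without wild-type P8 replicate 3, whereas it was 1.24 without wild-type P4 replicate 1. Averaged over genotypes the rise was 2.49 ± 0.38 (edgeR adjusted p = 0.000643). Means over the 5 P4 and 6 P8 libraries were 30.4 and 167 CPM (exact two-sided permutation p = 0.00433, smallest possible 0.00216), and 16.7 and 167 CPM without wild-type P4 replicate 2.

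Between genotypes, Gjd2 had no difference that passed. Kir2.1 relative to wild type gave a log2 fold change of -1.66 ± 0.52 at P4 (SE; edgeR adjusted p = 0.677). That value rested on wild-type P4 replicate 2: it was -0.14 without this library and -2.39 without the other wild-type library. At P8 the log2 fold change was -0.61 ± 0.45 (edgeR adjusted p = 0.747), and -0.06 without wild-type P8 replicate 1. The genotype effects at P8 and P4 differed by 1.05 ± 0.69 (edgeR adjusted p = 1), and by -0.48 without wild-type P4 replicate 2. The authors' deposited table called Gjd2 at P4, with a log2 fold change of -1.99 ± 0.31 and an adjusted p of 2.23e-07, where 2.27% of all genes with an adjusted p were called. Which libraries entered the authors' deposited table is not given in the sources used here. At P8 the authors' deposited table gave -0.87 ± 0.49 and an adjusted p of 0.333, with 7.27% of genes called.

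**Figure D2:**
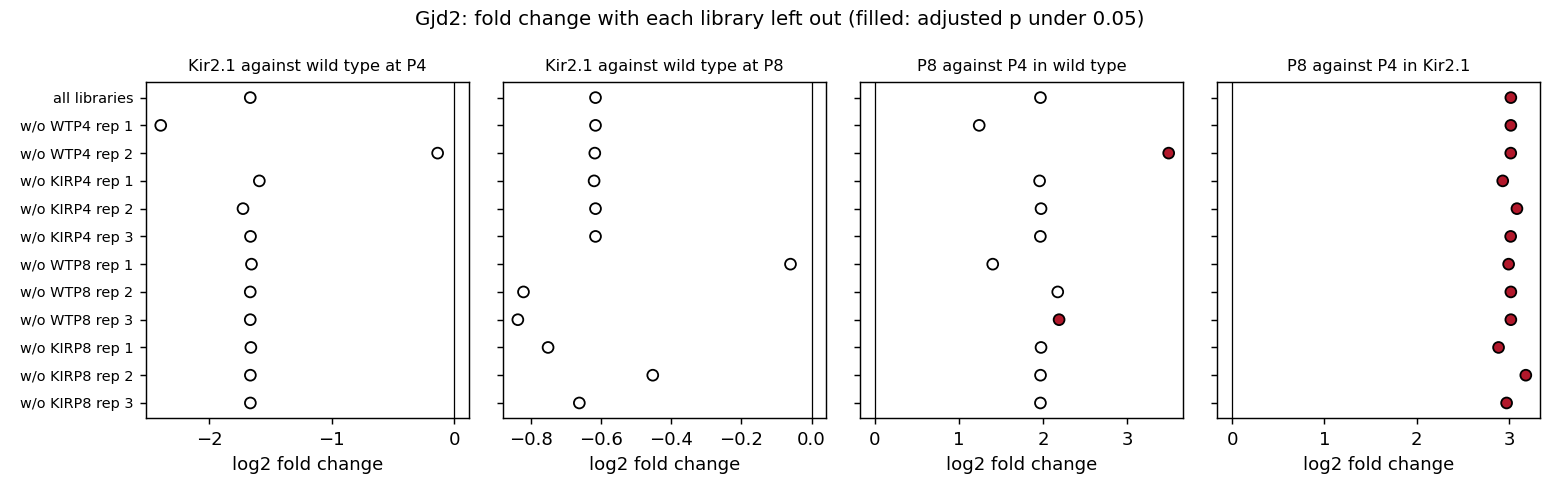
Log2 fold change of Gjd2 in 4 comparisons with all libraries and with each library left out in turn, where filled points have an adjusted p under 0.05 and open points do not. The P4 genotype value moves from -1.66 to -0.14 without wild-type P4 replicate 2, while the age difference in Kir2.1 stays between 2.89 and 3.18.

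In both libraries where Gjd2 was high for their age, amacrine cell markers were high as well. The sum of 8 amacrine markers was 2560 CPM in wild-type P4 replicate 2, and 1650 to 2040 CPM in the rest of P4. In wild-type P8 replicate 1 it was 4880 CPM, and 1710 to 3000 CPM in the rest of P8. Their part in the Gjd2 values was not tested. In bulk retina, more cells of a type and more RNA per cell cannot be told apart, here or for the genes below.

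**Figure D3:**
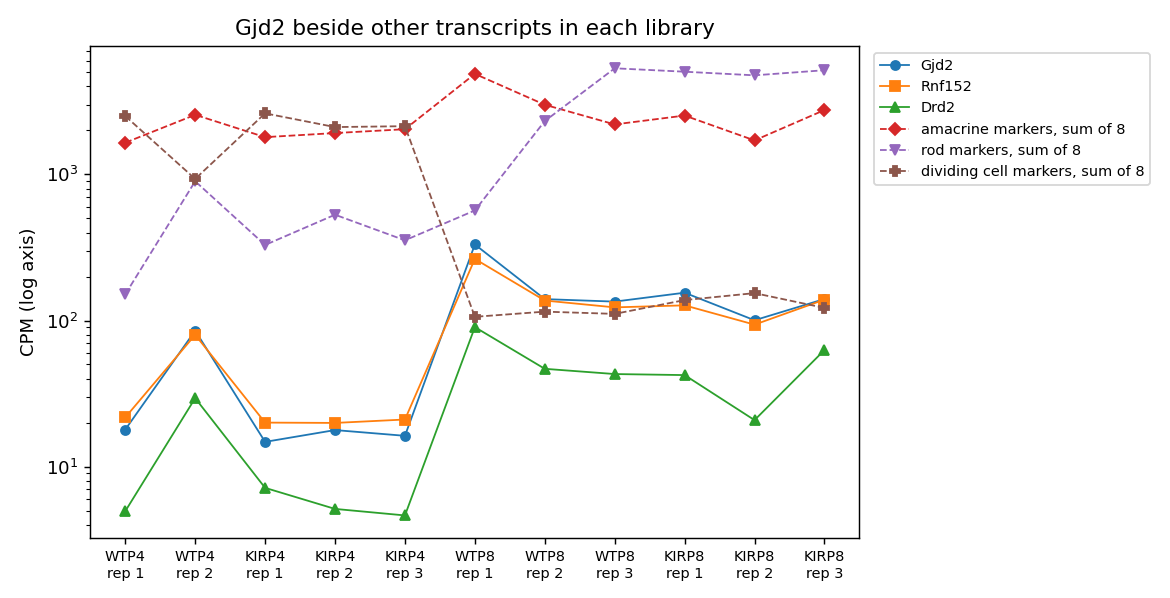
CPM of Gjd2, Rnf152 and Drd2 and summed CPM of 3 marker lists in each of the 11 libraries, on a log axis. Wild-type P4 replicate 2 lies between the other P4 libraries and the P8 libraries for Gjd2 (85.2 CPM), and wild-type P8 replicate 1 is highest for Gjd2 and the amacrine sum.

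The region before the start of Gjd2 is given because this gene had the widest range. It is chr2:114013620-114013869 (minus strand, GRCm38.p6, RefSeq), the 250 bases upstream of the start, 5′ to 3′, searched on both strands for TATAAA, TGACGTCA (CRE), TGANTCA (AP-1), GGATTA (CRX/OTX core), GGGCGG (GC box) and CANNTG (E-box), with matches in capitals except the E-box.
Gjd2 upstream: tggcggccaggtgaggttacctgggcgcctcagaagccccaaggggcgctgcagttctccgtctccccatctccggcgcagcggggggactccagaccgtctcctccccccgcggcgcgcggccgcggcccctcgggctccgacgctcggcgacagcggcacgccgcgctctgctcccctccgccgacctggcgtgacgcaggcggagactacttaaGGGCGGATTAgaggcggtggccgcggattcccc
The capitals hold 1 GC box and 1 GGATTA, which overlap, starting at -33 and -29 from the start. Among 32851 upstream windows of this length, 32.7% held a GC box and 6.25% held GGATTA. An E-box, held by 66.2% of windows, matched once, at -243, and TATAAA, CRE and AP-1 had no match. Its GC content was 74.0%, higher than that of 95.1% of the windows, where Gja1 was at 50.0%, Gja10 at 41.2% and Panx1 at 59.6%. Matches are a description of the letters only. An opposite-strand transcript, A530058N18Rik (ENSMUSG00000087694), shares 18 of the 2879 exon bases of Gjd2, and a second gene of that name (ENSMUSG00000092201) shares 57. The strand setting of the counting is not given in the sources used here, so reads of those bases cannot be assigned to 1 of these genes. The first of these transcripts ran from 3.81 to 25.8 CPM at P4 and from 41.3 to 56.1 CPM at P8.

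Gjc1 (ENSMUSG00000034520; chromosome 11, 102799579 to 102819700, minus strand, protein-coding) went the other way with age. Wild-type P4 libraries had 49.2 and 38.1 CPM and Kir2.1 P4 libraries 50.2, 52.1 and 43.1 CPM. By P8 the values were 36.0, 35.0 and 29.6 CPM in wild type and 27.3, 21.4 and 23.5 CPM in Kir2.1. All 6 P8 libraries were below all 5 P4 libraries, and at P8 all Kir2.1 libraries were below all wild-type ones. In Kir2.1 retinas Gjc1 fell from P4 to P8, with a log2 fold change of -1.01 ± 0.15 (SE; edgeR adjusted p = 0.00117), and the call held without each library in turn (-1.11 to -0.93). In wild type the log2 fold change was -0.38 ± 0.17 and did not pass (edgeR adjusted p = 0.235). It was -0.19 without wild-type P4 replicate 1. Averaged over genotypes Gjc1 fell by 0.70 ± 0.11 on the log2 scale (edgeR adjusted p = 0.00105), from a mean of 46.55 CPM over the P4 libraries to 28.8 CPM over the P8 libraries (exact two-sided permutation p = 0.00216, the smallest possible).

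The genotype comparison of Gjc1 at P8 gave a log2 fold change of -0.48 ± 0.15 (edgeR unadjusted p = 0.00893, adjusted p = 0.7). Exact permutation of the CPM values gave a two-sided p of 0.1, the smallest that 3 against 3 libraries allow. At P4 the fold change was 0.15 ± 0.17 (edgeR adjusted p = 0.852), and -0.02 without wild-type P4 replicate 2. The effects at P8 and P4 differed by -0.63 ± 0.23 (edgeR unadjusted p = 0.0172, adjusted p = 1); with P4 replicate 2 of wild type left out the value was -0.46 and its unadjusted p was no longer under 0.05. Gjc1 was not called in the authors' deposited table at P4 (0.36 ± 0.22, adjusted p = 0.588) or at P8 (-0.47 ± 0.25, adjusted p = 0.286). Beside the fall with age, the dividing-cell marker sum went from 932 to 2620 CPM at P4 to 106 to 154 CPM at P8; its part in the Gjc1 values was not tested.

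**Figure D4:**
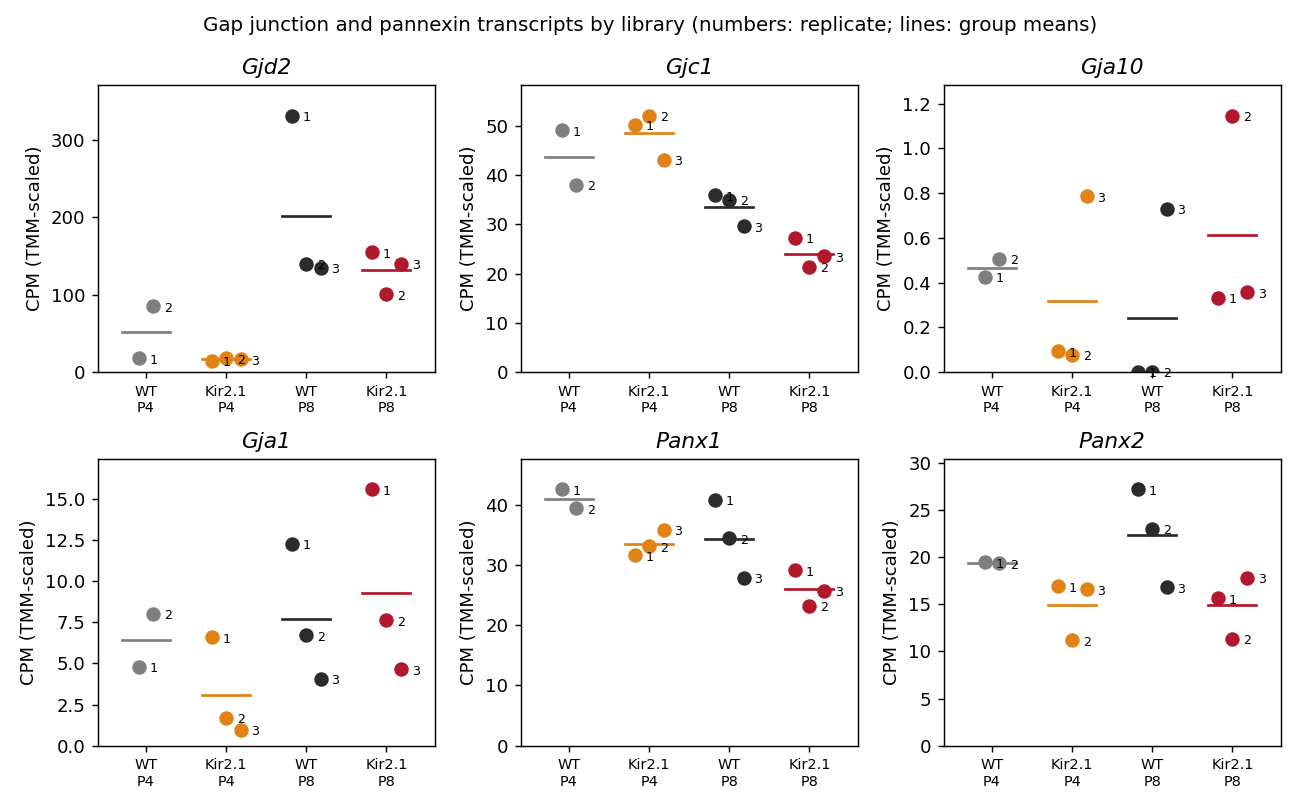
TMM-scaled CPM of the 6 genes in each library, with replicate numbers beside the points and a line at each group mean. Gjd2 is higher and Gjc1 lower in every P8 library than in every P4 library, and Gja10 stays at or under 1.15 CPM.

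Gja10 (ENSMUSG00000051056; chromosome 4, 32596960 to 32602760, minus strand, protein-coding) was near the limit of detection. Wild-type P4 libraries held 5 and 6 counts of it, and those of Kir2.1 at P4 held 1, 1 and 9. At P8 it had 0, 0 and 9 counts in wild type and 4, 11 and 4 in Kir2.1. A count of 0 allows a level of up to 0.265 CPM in wild-type P8 replicate 1 and 0.253 CPM in replicate 2, from 3 counts, which covers counting error only. The highest value, 1.15 CPM, was in Kir2.1 P8 replicate 2. The genotypes overlapped at both ages (exact two-sided permutation p = 0.6 at P4 and 0.5 at P8, smallest possible 0.1). The authors' deposited table gave log2 fold changes of -2.52 ± 1.62 at P4 and 5.06 ± 2.20 at P8 (unadjusted p = 0.121 and 0.0213), with no adjusted p. Without wild-type P4 replicate 2 and wild-type P8 replicate 3, Gja10 passed the filter through Kir2.1 P8 replicate 2 (11 counts). Its log2 fold change between genotypes at P8 was then 5.8. That fit leaves out the only wild-type P8 library with counts, so the value follows from the choice of libraries and is no test. No difference passed the threshold at this depth. Markers of horizontal cells, in which Gja10 is known to be expressed, were present in every library, with all 5 passing the filter and sums of 136 to 222 CPM.

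Gja1 (ENSMUSG00000050953; chromosome 10, 56377330 to 56402513, plus strand, protein-coding) was low and scattered. Wild-type P4 libraries had 4.78 and 8.02 CPM, and Kir2.1 P4 libraries 6.59, 1.69 and 0.96 CPM. Wild type gave 12.3, 6.71 and 4.06 CPM at P8, where Kir2.1 gave 15.6, 7.61 and 4.63 CPM. The groups overlapped in each of these comparisons. From P4 to P8 the log2 fold change was 1.60 ± 0.66 in Kir2.1 (SE; edgeR adjusted p = 0.126) and 0.26 ± 0.72 in wild type (edgeR adjusted p = 0.889). The Kir2.1 value was 2.77 and passed (edgeR adjusted p = 0.0255) without Kir2.1 P4 replicate 1, and was 0.998 (edgeR adjusted p = 0.424) when P8 replicate 1 of that genotype was left out. It passed with the replicate number as a block too (1.74, edgeR adjusted p = 0.0272), although the numbers did not pair the libraries. Between genotypes it was -1.07 ± 0.73 at P4 and 0.28 ± 0.63 at P8, with 95% intervals of -2.65 to 0.51 and -1.10 to 1.65. Without Kir2.1 P4 replicate 1 the P4 value was -2.25, and the P8 value was below 0 when Kir2.1 P8 replicate 1 (-0.33) or wild-type P8 replicate 3 (-0.03) was left out. Vascular marker sums in the libraries with the most Gja1 at P8 were 512 CPM (Kir2.1 replicate 1) and 494 CPM (wild-type replicate 1), and 321 to 378 CPM in the rest of P8. At P4 the sums were 561 and 427 CPM in wild type and 590, 734 and 443 CPM in Kir2.1, with no clear order beside Gja1. Their part was not tested. All 5 astrocyte and all 8 Mueller glia markers passed the filter. In Kir2.1 P8 replicate 1 their sums were the highest of P8, at 81.9 and 1590 CPM. In wild-type P8 replicate 1 the Mueller sum was the lowest of P8 (961 CPM). The astrocyte sum there was 71.7 CPM, against 80.9 CPM in wild-type P8 replicate 3, which had the least Gja1 of P8. The part of these cells was not tested either.

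Both pannexins were detected in every library, Panx1 at 23.2 to 42.5 CPM and Panx2 at 11.2 to 27.2 CPM. Panx1 (ENSMUSG00000031934; chromosome 9, 15002128 to 15045478, minus strand, protein-coding) encodes the widely expressed ATP-releasing channel. Its P4 levels were 42.5 and 39.4 CPM in wild type, and Kir2.1 had 31.6, 33.1 and 35.8 CPM. Its P8 levels were 40.8, 34.4 and 27.9 CPM in wild type, and Kir2.1 had 29.1, 23.2 and 25.8 CPM. The genotypes did not overlap at P4, and at P8 wild-type replicate 3 lay within the Kir2.1 range. Panx2 (ENSMUSG00000058441; chromosome 15, 89059734 to 89073567, plus strand, protein-coding) encodes a pannexin found mainly in neurons. For P4 it gave 19.5 and 19.3 CPM in wild type, with 16.9, 11.2 and 16.6 CPM in Kir2.1. For P8 it gave 27.2, 23.0 and 16.8 CPM in wild type, with 15.6, 11.4 and 17.8 CPM in Kir2.1. Again the genotypes were apart at P4 and overlapped at P8 through wild-type replicate 3.

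Neither pannexin had a genotype difference that passed. Panx1 had log2 fold changes, Kir2.1 relative to wild type, of -0.29 ± 0.17 (P4; SE; edgeR adjusted p = 0.729) and -0.40 ± 0.16 (P8; edgeR adjusted p = 0.7). Those of Panx2 were -0.38 ± 0.26 (P4; edgeR adjusted p = 0.76) and -0.58 ± 0.23 (P8; edgeR adjusted p = 0.7). Averaged over ages the values were -0.34 ± 0.12 for Panx1 (edgeR adjusted p = 0.363) and -0.48 ± 0.17 for Panx2 (edgeR adjusted p = 0.367). Each of these 6 values stayed below 0 without each library in turn; at P8 they moved to -0.26 (Panx1) and -0.41 (Panx2) without wild-type P8 replicate 1, and Panx2 at P4 to -0.20 without Kir2.1 P4 replicate 2. The authors' deposited table gave -0.03 ± 0.25 for Panx1 and -0.36 ± 0.31 for Panx2 at P4. At P8 the authors' deposited table gave -0.55 ± 0.24 for Panx1 (adjusted p = 0.143) and -0.73 ± 0.28 for Panx2 (adjusted p = 0.0907). Ganglion cell marker sums moved alongside at P4, as given above. At P8, rod sums were 567, 2320 and 5330 CPM in wild type and 4770 to 5170 CPM in Kir2.1, and amacrine sums were 4880, 3000 and 2200 CPM in wild type and 1710 to 2760 CPM in Kir2.1. In wild type at P8 both pannexins had the order of the amacrine sums and the reverse of the rod sums. In Kir2.1 at P8 the sums were 2530, 1710 and 2760 CPM (amacrine) and 5050, 4770 and 5170 CPM (rod). Panx2 had the order of both there, and Panx1 of neither. In wild type at P4, Panx1 (42.5 and 39.4 CPM) ran against the amacrine sums (1650 and 2560 CPM). The part of these cells in the pannexin values was not tested.

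With age, Panx1 changed by -0.25 ± 0.17 in wild type (edgeR adjusted p = 0.478) and -0.36 ± 0.16 in Kir2.1 (edgeR adjusted p = 0.142) on the log2 scale, and its P8 and P4 libraries did not overlap in Kir2.1. Averaged over genotypes it was -0.31 ± 0.12 (edgeR adjusted p = 0.0781), and -0.40 without wild-type P8 replicate 1, where it passed (edgeR adjusted p = 0.0229). Panx2 had an age difference of 0.20 ± 0.26 in wild-type and 0.01 ± 0.24 in Kir2.1 retinas, with 95% intervals of -0.37 to 0.77 and -0.50 to 0.52. An opposite-strand transcript overlaps the Panx2 locus but shares 0 exon bases with it.

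**Figure D5:**
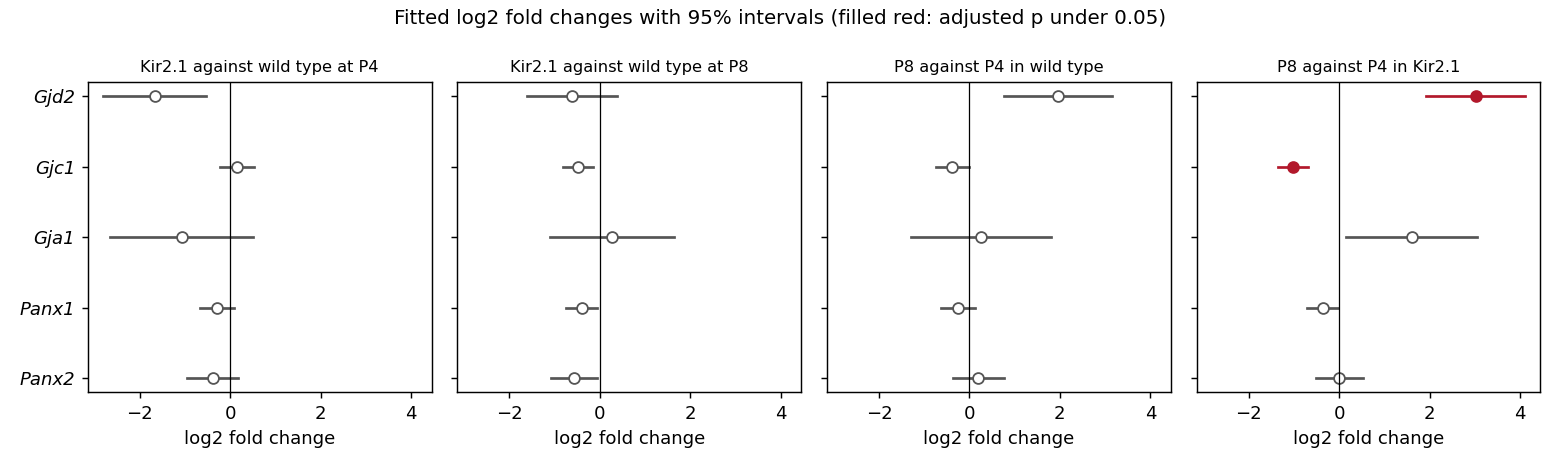
Log2 fold changes of the 5 genes that passed the filter in 4 comparisons, with 95% intervals that are not adjusted for the number of genes and with filled red points for an adjusted p under 0.05. Gjd2 and Gjc1 are filled for P8 against P4 in Kir2.1, at 3.02 and -1.01, and no point is filled between genotypes.

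Across the set, edgeR called 0 of the 5 tested genes between genotypes at P4, where it called 0.0% of 18188 genes, and 0 of 5 at P8, also against 0.0%. At an unadjusted p under 0.05 there was 1 at P4 (Gjd2; 7.22% of all genes) and 3 at P8 (Gjc1, Panx1 and Panx2; 6.82% of all genes). At P8 this count depended on single libraries: leaving out replicate 1 or 2 of wild type, or replicate 2 of Kir2.1, made it 1, and leaving out replicate 1 or 3 of Kir2.1 made it 2. At P4 leaving out replicate 2 of wild type made it 0, and leaving out replicate 1 of Kir2.1 made it 2. Over all genes the unadjusted count at P8, 1240 of 18188, moved as well. It was 543 of 18072 without wild-type P8 replicate 1 and 3578 of 18032 without wild-type P8 replicate 3. DESeq2 and limma voom called 0 of the 5 at either age. Over all genes DESeq2 called 33 at P4 and 3 at P8, and voom 0. CPM did not overlap between genotypes for 3 genes at P4 (Gjd2, Panx1 and Panx2; 26.7% of all genes) and for 1 at P8 (Gjc1; 10.6% of all genes). The median log2 fold change of the 5 was -0.38 at P4 and -0.48 at P8, beside 0.01 and 0.00 over all genes. Averaged over ages all 5 lay below 0, as did 48.7% of all genes, and none passed (0.0% called), with 3 (Gjd2, Panx1 and Panx2) at an unadjusted p under 0.05 (11.7% of all genes); DESeq2 and voom called 0 of the 5. The comparisons at a given age and their average share libraries. For the difference between the genotype effects edgeR called 0 (0.0% of all genes), with 1, Gjc1, at an unadjusted p under 0.05 (3.09%), and DESeq2 and voom called 0. Leaving out P4 replicate 2 of wild type made this 0, and leaving out P4 replicate 1 of either genotype or P8 replicate 1 of wild type made it 2.

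With age, 2 of the 5 were called in Kir2.1 (Gjd2 higher, Gjc1 lower), where 16.7% of all genes were called (7.93% higher, 8.73% lower). The same 2 were called on average over genotypes, where 22.8% of all genes were (10.7% higher, 12.1% lower). Voom called 3 on average over genotypes, adding Panx1 (-0.30, adjusted p = 0.043), and edgeR without a filter called 3 on average and in Kir2.1, adding Gja1 (0.93, adjusted p = 0.00511, and 1.61, adjusted p = 0.000159). In wild type 0 of 5 were called, with 2 (Gjd2 and Gjc1) at an unadjusted p under 0.05 (19.6% of all genes), and 4.39% of all genes were called. The unadjusted count was 1 when any of 5 libraries was left out (wild-type P4 replicate 1, Kir2.1 P4 replicate 2, replicates 2 and 3 of wild type at P8, and replicate 3 of Kir2.1 at P8), and 3 when P8 replicate 1 of wild type was. DESeq2 and voom each called Gjd2 there, with log2 fold changes of 1.98 and 2.05 and adjusted p of 0.0204 and 0.0315. No overlap between the 5 P4 and 6 P8 libraries was seen for Gjd2 and Gjc1, and for 11.6% of all genes. Within wild type the 2 ages did not overlap for these 2 genes (31.1% of all genes), and within Kir2.1 for these and Panx1 (38.1% of all genes).

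Genes with the most similar profiles over the 11 libraries were taken by Pearson correlation of log2 CPM among 12196 genes. The libraries fall into 2 ages, so the correlation of deviations from each age mean is given second. For Gjd2 they were Rnf152 (0.998 and 0.991), Vwc2l (0.994 and 0.974) and Slc6a12 (0.992 and 0.973). Rnf152 was high in the same libraries as Gjd2, at 79.8 CPM in wild-type P4 replicate 2 against 19.9 to 21.7 CPM in the other P4 libraries, and at 264 CPM in wild-type P8 replicate 1 against 93.7 to 139 CPM. For Gjc1 the nearest were Rapgef2 (0.979 and 0.943), Rnd3 (0.973 and 0.915) and Fam111a (0.968 and 0.936). For Gja1 they were Cavin1 and C130074G19Rik (each 0.954 and 0.936) and the endothelial claudin Cldn5 (0.951 and 0.932). Panx1 lay closest to Shtn1 (0.963 and 0.949), Tmod2 (0.960 and 0.951) and Fbxo21 (0.955 and 0.954), and Panx2 to Atcay (0.973 and 0.972), Atp2b3 (0.969 and 0.968) and Fry (0.968 and 0.967).

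The other 17 connexins and pannexins were scarce. The filter was passed by 4 of them, 15 had a mean under 1 CPM, and Panx3 had no count. Of the 16 with a count, 9 were highest in Kir2.1 P8 replicate 2. In that library pigment epithelium markers summed to 17.0 CPM, against 0.162 to 3.67 CPM elsewhere, and lens markers to 18.8 CPM, against 1.25 to 30.7 CPM. Their part in these values was not tested. No gene of the 4 was called between genotypes or with age in either genotype. Gje1 was at 0 to 0.611 CPM at P4 and 0.0915 to 3.65 CPM at P8; it passed the filter through P8 libraries alone, so its difference with age is given as a description.

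Scaffolds and partners of junctional plaques came next. Of 9 genes, 8 passed the filter, and averaged over genotypes 2 rose and 4 fell from P4 to P8 (10.7% and 12.1% of all genes), with a median log2 fold change of -0.27 beside 0.02 over all genes. Dividing-cell marker sums went from 932 to 2620 CPM at P4 to 106 to 154 CPM at P8. Wild-type P4 replicate 2, the lowest of P4 in that sum, was also the lowest of P4 for Cdh2 (327 CPM) and Tjp3 (2.20 CPM). It was not the lowest for Dbn1, at 355 CPM. Kir2.1 P4 replicate 2, with a dividing-cell sum of 2110 CPM, had less Dbn1 (319 CPM). For Src, the P4 means were close, at 129 CPM (wild type, SD 1.99) and 131 CPM (Kir2.1, SD 11.2). The part of dividing cells in these values was not tested. Cnst, which encodes the connexin-trafficking protein consortin, rose by 0.60 ± 0.10 (SE; edgeR adjusted p = 0.00131), and it passed within wild type (edgeR adjusted p = 0.0452) and Kir2.1 (edgeR adjusted p = 0.00961). Cdh2 (N-cadherin) had -0.69 ± 0.11 and Dbn1 (drebrin, an actin-binding partner of Cx43) -0.49 ± 0.10, and Tjp3 and the kinase gene Src fell too (-1.08 ± 0.28 and -0.36 ± 0.11). Ctnnb1 (beta-catenin), the most abundant of the list, had -0.14 ± 0.08 (edgeR adjusted p = 0.255). Between genotypes 0 of the 8 were called at either age.

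Genes that modulate coupling included dopamine and adenosine receptors, nitric oxide and cyclic nucleotide signalling, and CaM kinase subunits. All 16 passed the filter, and averaged over genotypes 4 rose with age and 0 fell, a total share near the 22.8% of all genes called (10.7% higher, 12.1% lower). Of the 16, 14 lay above 0 with age, where 48.0% of all genes lay below 0. The median log2 fold change was 0.27 beside 0.02 over all genes. Rod marker sums were 151 to 898 CPM at P4 and 567 to 5330 CPM at P8. Bipolar sums were 435 to 696 CPM at P4 and 788 to 2430 CPM at P8. Dividing-cell sums were 932 to 2620 CPM at P4 and 106 to 154 CPM at P8. Their part in the age values was not tested. Drd2, a dopamine receptor, rose by 2.35 ± 0.43 on the log2 scale (SE; edgeR adjusted p = 0.00226). Like Gjd2 it was highest for its age in wild-type P4 replicate 2 (29.4 CPM, against 4.63 to 7.15 CPM) and in wild-type P8 replicate 1 (90.1 CPM, against 20.8 to 62.8 CPM). Drd4 rose by 1.95 ± 0.55, Gucy1b1, a guanylyl cyclase subunit that senses nitric oxide, by 0.56 ± 0.11, and Camk2d by 0.42 ± 0.09. The phosphatase subunit gene Ppp2ca, the most abundant, had 0.06 ± 0.09 and the protein kinase A subunit gene Prkacb 0.05 ± 0.13, and neither passed. Between genotypes 13 of 16 lay below 0 at P4 (48.7% of all genes) and 13 of 16 at P8 (49.5% of all genes), and 0 were called at either age. Ganglion cell marker sums at P4 were 844 to 1350 CPM in wild type and 680, 248 and 698 CPM in Kir2.1. At P8 they overlapped (152 to 271 CPM in wild type, 163 to 220 CPM in Kir2.1). Amacrine sums overlapped at P4 (1650 to 2560 CPM in wild type, 1800 to 2040 CPM in Kir2.1). They overlapped at P8 too (2200 to 4880 CPM in wild type, 1710 to 2760 CPM in Kir2.1). The part of these cells was not tested.

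Receptors and enzymes that act on extracellular ATP, the cargo of pannexin channels, made up the last list. Of 14 genes, 11 passed the filter, and averaged over genotypes 1 rose and 2 fell with age, a total share near the 22.8% of all genes called. Of the 11, 9 lay below 0 (48.0% of all genes), with a median log2 fold change of -0.74 beside 0.02 over all genes. The sum of 6 microglia markers was 150 to 309 CPM at P4 and 68.0 to 120 CPM at P8 in all libraries but Kir2.1 replicate 1 (231 CPM); its part in these values was not tested. Nt5e, the ectonucleotidase that makes adenosine, rose by 2.31 ± 0.43 on the log2 scale (SE; edgeR adjusted p = 0.00246). Its P8 values were 11.8, 43.9 and 97.6 CPM in wild type and 94.7, 113 and 104 CPM in Kir2.1. The wild-type values had the order of the rod marker sums (567, 2320 and 5330 CPM). Those of Kir2.1 did not (rod sums of 5050, 4770 and 5170 CPM). At P4 Nt5e was highest in Kir2.1 replicate 2 (23.1 CPM) and the rod sum in wild-type replicate 2 (898 CPM). The part of rods in the Nt5e values was not tested. P2rx2 and Entpd2 fell (-1.87 ± 0.46 and -1.14 ± 0.32), while P2ry12 (-0.74 ± 0.33) and Entpd1 (-0.83 ± 0.28) did not pass. For P2rx2 the log2 fold change was -2.95 ± 0.66 in wild type (edgeR adjusted p = 0.024) and -0.79 ± 0.64 in Kir2.1 (edgeR adjusted p = 0.456), with levels of 4.61 and 2.62 CPM for wild type at P4 and 0.208 to 0.929 CPM in all other libraries. Between genotypes 0 of the 11 were called at P4 or P8.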

How the data were processed

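The members and gene lists were chosen with earlier results of these data known. The authors deposited whole-number counts per Ensembl gene, 1 table per library. Per the submitters' processing notes, the tools were cutadapt 1.18, STAR 2.5.0c, SAMtools 1.9, bedtools 2.26.0, HTSeq 0.6.1 and DESeq2, with build mm10; the strand setting is not given in the sources used here. Records of no gene made up 74.6% to 79.8% per library and were left out. Per the file headers, the authors' deposited table for each age lists log2 fold changes, their standard errors, the test statistic (a score) and p-values, raw and adjusted.

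Counts were fitted with edgeR 4.0.16 (R 4.3.3) quasi-likelihood on 4 group means over all 11 libraries, TMM scaling and filterByExpr (18188 genes kept), with Benjamini-Hochberg adjustment at 0.05 over all genes. A fitted fold change carries its SE, and its 95% interval uses the t quantile. The fit was first tested on simulated counts. Named genes were the 6 members, the 3 most abundant of each list, all list genes called (some are not reported here), and the 3 most correlated with each member (prior count 2, mean of at least 5 CPM, hence the 12196 genes). Alternatives used DESeq2 1.42.0 and limma 3.58.1. Coordinates and lengths came from GENCODE mouse release 21, and upstream sequences, found for 4 of the 6 genes, from RefSeq.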

Additional observations from a re-analysis of the deposited data

How the results depend on the processing

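The number of the 6 genes called between genotypes was 0 at P4, at P8, for the difference between ages and for the mean of both ages, and it became 1 (Gjd2) in each of these 4 without a filter on low counts. In that fit the prior degrees of freedom were infinite, against 5.05 with the filter, so that no gene kept a quasi-dispersion of its own. For P8 against P4 in wild type the count went from 0 to 1 (Gjd2) without a filter, with DESeq2, with voom, without wild-type P4 replicate 2 and wild-type P8 replicate 3 together (3.71 on the log2 scale), and in 2 of the fits that left out 1 library (range 0 to 1). In Kir2.1 and averaged over genotypes, 2 to 3 were called without 1 library. With the replicate block the count changed by 1, to 3, for P8 against P4 in Kir2.1 and on average, through Gja1 (1.74 and 1.10); the numbers pair the libraries in no stated way, and deviations of same-numbered libraries correlated at -0.08 to 0.14, above 0.1 in 3 of 15 pairs. Signs changed for uncalled values only. With those 2 wild-type libraries left out together, Gjc1 between genotypes at P4 was -0.022, Gja1 at P8 -0.028 and the Gjd2 difference between ages -0.70. Panx2 with age in Kir2.1 was -0.004 with a minimum mean of 1 CPM and -0.016 without genes above 1% of a library. Leaving out 1 library gave ranges of -0.018 to 0.344 (Gjc1, genotypes at P4), -0.33 to 0.78 (Gja1, genotypes at P8), -0.48 to 1.78 (Gjd2, difference between ages), -0.239 to 0.024 (Panx1, the same), -0.26 to 0.68 (Gja1, age in wild type) and -0.17 to 0.17 (Panx2, age in Kir2.1). Over all genes, calls between genotypes went from 0 to 33 (P4), 3 (P8) and 86 (mean of ages) with DESeq2, and to 339, 447 and 901 without a filter, which gave 136 for the difference between ages. For P8 against P4 in wild type they went from 798 to 1580 with DESeq2, 2058 without a filter and 113 with only the groups compared. Without wild-type P4 replicate 1 they were 163 there and 2133 (from 4140) on average over genotypes; in wild type they were 1338 when replicate 2 of P4 was left out and 1299 when replicate 1 of P8 was. In Kir2.1 they went from 3029 to 1764, 2012 and 1841 without Kir2.1 P4 replicate 1, Kir2.1 P8 replicate 2 and Kir2.1 P8 replicate 3. Without those 2 wild-type libraries they were 534 between genotypes at P8, 141 for the mean of ages and 1711 for age in wild type; without wild-type P8 replicate 3 alone, 219 between genotypes at P8 and 609 for the mean of ages. Beyond what is stated, the cause was not tested. A fit without 1 wild-type P4 library leaves a lone library there, which is assumed to vary like the other groups. Depth limits Gja10 (at most 11 counts).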
